A study of Mus musculus with 8 samples.

Results

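The HoxD cluster is a row of 9 homeobox genes on mouse chromosome 2, and its members were taken as a fixed list of gene names: Hoxd13, Hoxd12, Hoxd11, Hoxd10, Hoxd9, Hoxd8, Hoxd3, Hoxd4 and Hoxd1. They are 9 of the 21887 protein-coding genes examined. The cells were EML_C1, a line of mouse blood progenitors kept in medium with mouse stem cell factor, labelled C57BL/6 and of passage 4-5. Their chromatin was immunoprecipitated and sequenced with antibodies to Ezh2, to trimethylated lysine 27 of histone H3 (H3K27me3) and to Runx1. Each antibody had 2 replicates, and 1 input library served Ezh2 and Runx1 while another served H3K27me3. All libraries come from this single line, with no mutation or treatment separating the groups. EML lines are generally known to carry a dominant-negative retinoic acid receptor, which limits them as a model of Hox regulation. No expression was measured in these files, so neither the progenitor identity of the line nor the activity of a Hox gene could be checked.

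Hox genes encode transcription factors that tell cells where they lie along the body axis, and the order of the genes in a cluster follows the order in which they act. Genes at the Hoxd13 end serve the posterior trunk, the digits and the genitalia, while those at the Hoxd1 end serve the hindbrain and neck. In cells where a cluster is silent it is usually held by Polycomb repressive complex 2, whose catalytic subunit Ezh2 sets the H3K27me3 mark. Runx1 is a DNA-binding factor needed for blood stem cell formation. The deposited files hold peaks, intervals in which the authors' peak caller found an excess of reads, with the authors' own fold enrichment and a q-value (a p-value adjusted for the number of positions tested) for each peak. Cover is used here for the percent of the bases of a gene, taken with 1 kb on either side, that lay under any peak of a list.

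Ezh2 lay on the posterior part of HoxD and was not found over most of the anterior part. The cluster runs from the start of Hoxd13 to the end of Hoxd1 (mm10, chromosome 2, 74668225 to 74765142, 96.9 kb, all 9 genes read in the same direction). Replicate 1 had 31 Ezh2 peaks in it and replicate 2 had 32. Of these, 28 and 28 fell between the start of Hoxd13 and the end of Hoxd8, a stretch of 39.7 kb. Ezh2 peaks covered 36.4 ± 1.05% of that stretch (SD, n = 2) and 1.65 ± 0.540% of the 57.2 kb that follow, down to Hoxd1. The mark had the same lean, with 68.7 ± 19.5% and 20.4 ± 9.04%. The point of division was set after the peaks had been seen, so the contrast describes where the peaks lie and was not tested. Over chromosome 2, from its first to its last peak, the cover was 2.93 ± 0.232% for Ezh2 and 12.4 ± 4.16% for H3K27me3.

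**Figure D1:**
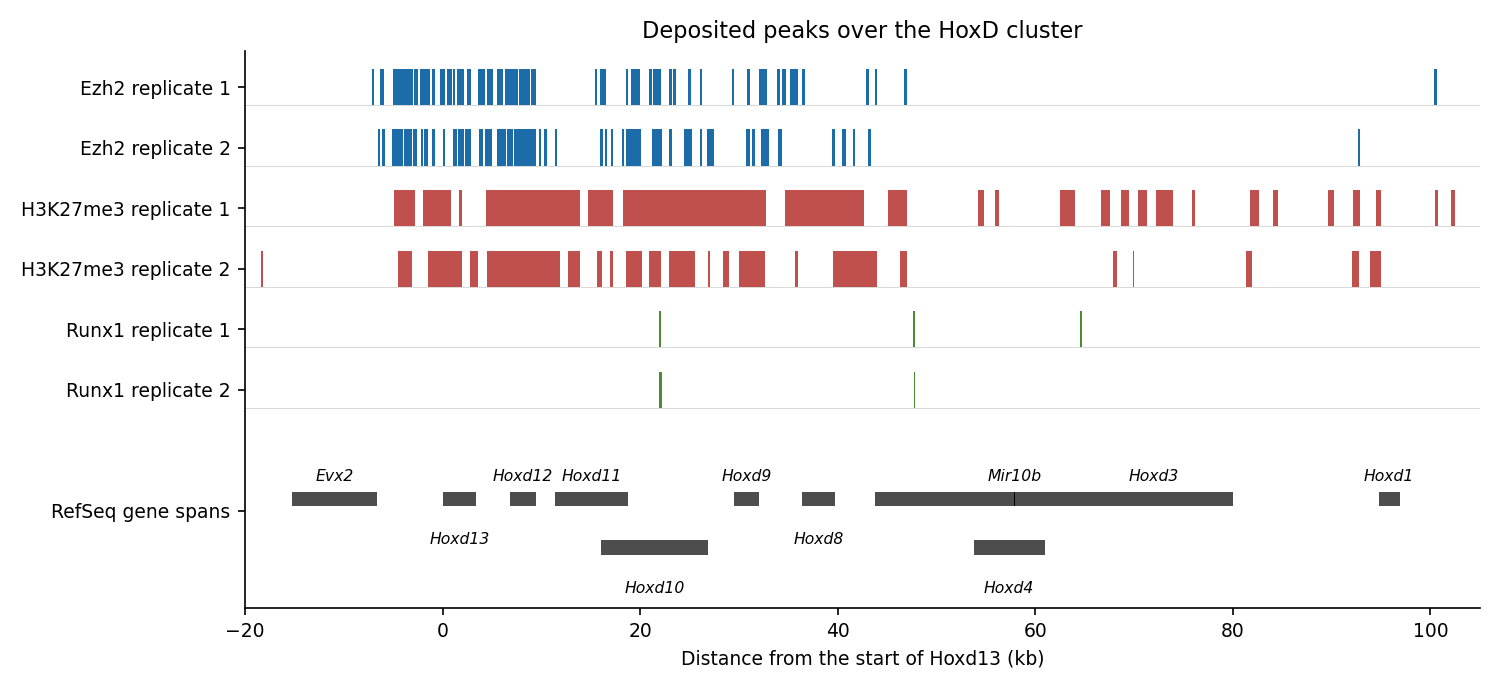
Peaks of the 6 deposited lists over the HoxD cluster, with the distance from the start of Hoxd13 in kb on the horizontal axis and the RefSeq gene spans below. Ezh2 peaks crowd over Hoxd13 and Hoxd12, thin out towards Hoxd8, and leave a gap of 45.7 kb in both lists that holds Hoxd4 and most of Hoxd3.

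A gene was counted as carrying an antibody where its span, with 1 kb on either side, touched a peak in both replicates. The deposited lists are lenient, reaching p-values of 0.0493 to 0.0499, and peaks with a q above 0.05 made up 58.9% and 76.1% of the Ezh2 lists, 80.8% and 95.5% of the H3K27me3 lists and 33.0% and 24.4% of the Runx1 lists. Carrying an antibody, and cover, therefore include many weak peaks. By this rule 7 of the 9 HoxD genes carried Ezh2, against 31.5% of all protein-coding genes. The mark was found at 8 of 9, against 39.2%, and Runx1 at 2 of 9, against 59.9%. HoxD spans are short, with a median of 3.38 kb against 17.2 kb for all protein-coding genes, so a HoxD gene has less room to hold a peak than most. Percent cover can work the other way, since a few peaks fill more of a short window than of a long one. Cover was not adjusted for length. The median cover of the 9 genes was 22.4% for Ezh2, 64.7% for H3K27me3 and 0% for Runx1, where the medians over all protein-coding genes were 0%, 0% and 1.38%.

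The posterior genes came first in Ezh2 cover. Hoxd13, whose mutation fuses and duplicates digits, had 59.3% of its window under Ezh2 peaks in replicate 1 and 46.6% in replicate 2. Hoxd12, its neighbour and likewise a limb gene, had 68.7% and 82.7%. The 2 lists placed both genes far above the median gene. Of all protein-coding genes, whatever their length, 0.512% had a mean cover at least that of Hoxd13 and 0.160% at least that of Hoxd12. Hoxd12 also lay wholly under H3K27me3 peaks, with 100% of its window covered in each list, while Hoxd13 had 41.4% and 70.9%. The single H3K27me3 peak over Hoxd12 had a q of 0.000774 in replicate 1 but 0.121 in replicate 2.

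Strength was greatest near these same genes. The Ezh2 peak of highest fold in replicate 1 lay between Hoxd13 and Hoxd12 (74672718 to 74673363), with a fold of 6.87 and a q of 5.44e-27. In replicate 2 the highest lay within Hoxd13 (74669763 to 74670390), with a fold of 6.23 and a q of 1.37e-13. Each of these sites held a peak in the other list as well, of fold 5.50 and 5.83. Peaks this high are uncommon, since in replicate 1 only 0.354% of all Ezh2 peaks reached the highest fold of HoxD, and in replicate 2 only 0.299%.

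Hoxd11, Hoxd10 and Hoxd9 formed a middle group. Hoxd11, which with its HoxA paralogue shapes the forearm, had an Ezh2 cover of 19.2% and 25.6%. Hoxd10, a gene of hindlimb motor neurons, had 32.5% and 41.2%, and its highest fold was almost the same in the 2 lists, at 4.86 and 4.87. Their RefSeq spans overlap by 2.74 kb, so these values share some peaks. Hoxd9, a gene of the lower trunk and hindlimb, had 29.4% and 30.3%. H3K27me3 covered 80.03% and 51.5% of Hoxd11, 91.9% and 50.3% of Hoxd10, and 95.2% and 69.9% of Hoxd9, more in replicate 1 each time.

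Hoxd8 lay at the edge. Its Ezh2 cover was 16.0% and 10.9%, and the mark covered 100% of its window in replicate 1 but 29.4% in replicate 2. Its strongest Ezh2 peaks, of fold 4.10 in replicate 1 and 4.51 in replicate 2, were 2 different peaks on opposite sides of the gene. The Ezh2 peaks of the 2 lists at Hoxd8 did not overlap anywhere, although the gene counts as carrying Ezh2. Hoxd8 was also the member on which the H3K27me3 lists differed most.

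The anterior genes carried little. Hoxd3, a gene of the first neck vertebrae, had an Ezh2 cover of 1.90% and 0.682%, all of it in or near the start of its long span of 36.3 kb. In replicate 1 the Ezh2 peak of highest fold there had a q of 0.0474. The only Ezh2 peak of replicate 2 had a q of 0.723 and lay in the flank before the start. Hoxd4, which lies wholly inside the RefSeq span of Hoxd3 and acts in the hindbrain and neck, had no Ezh2 peak in either list. Hoxd1, known in mice for its part in the wiring of pain-sensing neurons, had none either. The mark covered 23.5% and 6.599% of Hoxd3, 10.5% and 0% of Hoxd4, and 12.9% and 26.4% of Hoxd1. The single peak at Hoxd1 had a q of 0.657 in replicate 1 and 0.873 in replicate 2. Near the start of Hoxd3 the mark was stronger in replicate 2, where the peak at 74714560 to 74715262 had the highest H3K27me3 fold of that list in the cluster, 2.85 with a q of 0.0214, and in replicate 1 the peak over the same place had a fold of 2.00 and a q of 0.272.

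**Figure D2:**
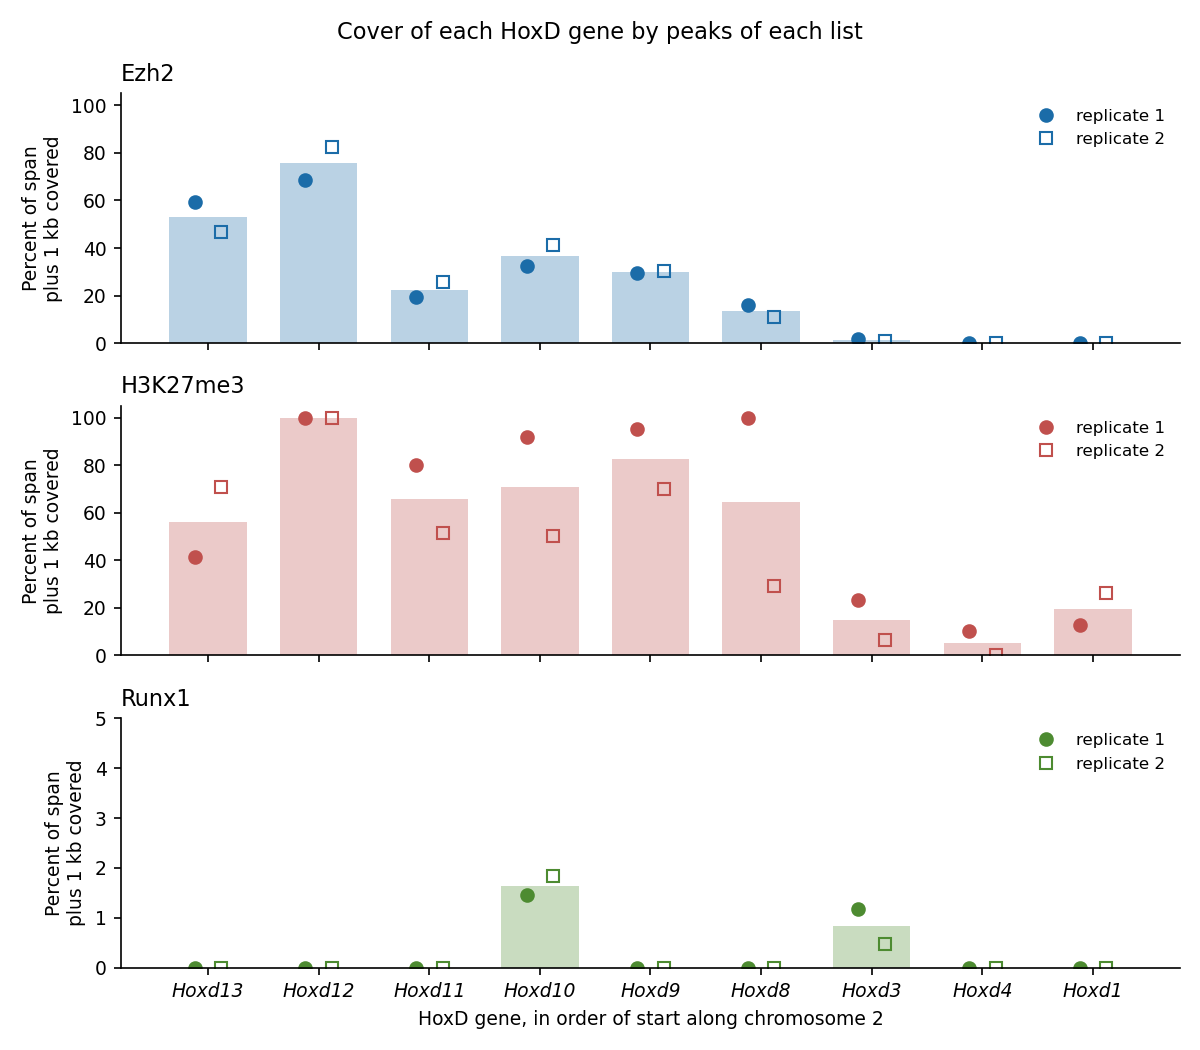
Percent of each HoxD gene, taken with 1 kb on either side, that lay under peaks of each list. Points are the 2 replicates and bars are their means; the Runx1 axis ends at 5%. Ezh2 cover is highest at Hoxd12 and Hoxd13 and is 0% at Hoxd4 and Hoxd1.

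Ranked by mean Ezh2 cover the genes run Hoxd12, Hoxd13, Hoxd10, Hoxd9, Hoxd11, Hoxd8 and Hoxd3, with Hoxd4 and Hoxd1 together at 0%. Each gene in this order had more cover in both lists than the next, apart from that last pair, so no pair of neighbours overlapped. The order of H3K27me3 cover is less sure, because the lists differ by more than most genes do. After Hoxd12 the means run Hoxd9 at 82.5 ± 17.9%, Hoxd10 at 71.1 ± 29.4%, Hoxd11 at 65.8 ± 20.2%, Hoxd8 at 64.7 ± 49.9% and Hoxd13 at 56.1 ± 20.8%, and neighbours among these overlap. All 6 genes from Hoxd13 to Hoxd8 had more of the mark in both lists than any of the other 3. Across the 9 genes, which are neighbours and share peaks, Ezh2 cover fell with distance from Hoxd13, with a Spearman correlation of -0.929 in each list. For H3K27me3 it was -0.536 in replicate 1 and -0.883 in replicate 2. The gene windows differ in length, with that of Hoxd3 the longest. In the equal windows around gene starts, given below, the order of Ezh2 cover is different.

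Stronger peaks alone leave fewer genes. Where both lists had to hold a peak with q no higher than 0.01, Ezh2 was kept at 5 genes, which were Hoxd13, Hoxd12, Hoxd11, Hoxd10 and Hoxd8, against 16% of all protein-coding genes. At 1e-05 it was kept at Hoxd13, Hoxd12 and Hoxd10, which is 3 of 9 against 6.78%. Strong peaks of the mark in HoxD differed between the lists. In replicate 1, 3 of its 20 peaks had a q of at most 0.01, and in replicate 2 none of its 20 did, the lowest q there being 0.0214. That is 15% and 0% of the HoxD peaks, against 6.13% and 1.34% of the whole lists. The highest in replicate 1, at Hoxd13, had a fold of 4.33 and a q of 3.17e-07, and 0.0635% of that list reached its fold. No HoxD gene kept the mark in both lists at 0.01, where 5.24% of all protein-coding genes did, nor at 1e-05, where 0.553% did. With only 9 genes, a count of 0 lies near these shares and is not read as a shortage. Runx1 was kept at Hoxd3 alone under each limit, against 54.8% and 50.5% of all genes. Among the 10000 strongest peaks of each list, Ezh2 was called at 5 HoxD genes against 10.4% of all genes, the mark at 0 against 10.7% and Runx1 at 0 against 29.6%. With an overlap of at least 200 bp, the calls were 7 for Ezh2 against 30.4%, 8 for the mark against 38.1% and 0 for Runx1 against 56.6%. Of the Ezh2 peaks in HoxD, 51.6% in replicate 1 and 37.5% in replicate 2 had a q of at most 0.01, against 20.2% and 14.1% of the whole lists.

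Replicates placed Ezh2 at the same sites in HoxD more often than along chromosome 2 as a whole. Of the HoxD peaks of replicate 1, 23 of 31 touched a peak of replicate 2, and 21 of 32 did so in return, which is 74.2% and 65.6%. The shares for all peaks of chromosome 2 were 43.8% and 48.4%. For H3K27me3 the shares in HoxD were 10 of 20 and 17 of 20, close to the 55.6% and 84.2% of the chromosome. Ezh2 peaks in HoxD were also wider, with a median of 411 bp and 392.5 bp against 267 bp in each whole list. They were denser too, as Ezh2 covered 15.9% of HoxD against 2.93% of chromosome 2. The shares of touching peaks were not adjusted for density or width. These differences are descriptions of 2 lists and carry no test.

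Ezh2 in HoxD lay largely inside the mark, as did Ezh2 on chromosome 2 as a whole, but far more of HoxD was marked. H3K27me3 peaks covered 49.6% of HoxD in replicate 1 and 30.7% in replicate 2, against 15.4% and 9.48% of chromosome 2. The shares that follow were not adjusted for this, so similar shares do not mean a similar excess over the marked part. Of the bases under Ezh2 peaks in the cluster, between 73.2% and 81.7% were under H3K27me3 peaks over the 4 pairings of an Ezh2 list with an H3K27me3 list, against 63.4% to 84.3% for chromosome 2. In the other direction, between 24.9% and 40.8% of the marked bases of HoxD were under Ezh2, against 14.5% to 22.2% for the chromosome.

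The uncovered stretches show where in HoxD the lists hold no peak. Taking both replicates together, the longest stretch without Ezh2 ran for 45.7 kb (74715201 to 74760926) and held Hoxd4, Mir10b and the rest of Hoxd3. It was the only one of at least 5 kb. In each list alone it was 49.9 kb and 49.4 kb. For H3K27me3 the longest stretch was 7.12 kb (74715263 to 74722377), from within Hoxd3 to just after the start of Hoxd4, and 3 others reached 5 kb. It was 20.8 kb in replicate 2 alone, which lacks the marked pieces that replicate 1 has over Hoxd4 and beyond it, inside Hoxd3. Before it, the last Ezh2 peak of replicate 1 ended at 74715200, and the last H3K27me3 peaks ended at 74715216 and 74715262, all inside the span of Hoxd3. The last Ezh2 peak of replicate 2 ended earlier, at 74711539, just before the start of Hoxd3.

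A stretch of 6.23 kb that starts within Hoxd4 and ends beyond it, inside the span of Hoxd3 (74724509 to 74730737), had no peak of any antibody in any list. It holds Mir10b (74726070 to 74726137), the gene of a microRNA that sits beside Hoxd4 in vertebrates. The mature product is shown because its gene lies wholly in this stretch and a microRNA acts through its sequence. Its seed, bases 2 to 8, is in capitals.
mmu-miR-10b-5p: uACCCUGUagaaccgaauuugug

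Gene starts were examined apart from gene bodies. RefSeq gives 10 starts for the 9 genes, with 2 for Hoxd11. Within 1 kb of a start, Ezh2 was found in both lists at 4 genes, Hoxd13, Hoxd12, Hoxd10 and Hoxd3, against 15.2% of the 17492 protein-coding genes with a listed start. At Hoxd3 the Ezh2 peak of replicate 2 had a q of 0.723. H3K27me3 was found at 7 of 9, all but Hoxd3 and Hoxd4, against 26%, and Runx1 at 0 of 9, against 46.1%. Ezh2 covered 84.6% and 89.8% of the 2 kb around the start of Hoxd12. Around the start of Hoxd13 the cover was 59.8% and 19.2%, and around that of Hoxd10 29.3% and 25.7%. Around the starts of Hoxd11, Hoxd9 and Hoxd8, by contrast, at most 1 of the 2 lists had an Ezh2 peak, although both had one somewhere in each gene or its flanks.

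Polycomb domains in mammals are often found at stretches rich in the dinucleotide CG, so the bases before the starts are shown for 2 genes with much Ezh2 and 2 without any. Sequences are the 250 bases before the start, from RefSeq on GRCm38.p6, plus strand, with every CG in capitals.
Hoxd13, chr2:74667975-74668224: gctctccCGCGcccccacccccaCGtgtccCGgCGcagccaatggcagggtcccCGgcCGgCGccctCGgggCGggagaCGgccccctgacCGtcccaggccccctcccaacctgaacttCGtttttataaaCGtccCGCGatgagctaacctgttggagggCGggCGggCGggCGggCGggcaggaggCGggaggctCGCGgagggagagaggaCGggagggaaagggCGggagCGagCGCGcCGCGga
Hoxd12, chr2:74674763-74675012: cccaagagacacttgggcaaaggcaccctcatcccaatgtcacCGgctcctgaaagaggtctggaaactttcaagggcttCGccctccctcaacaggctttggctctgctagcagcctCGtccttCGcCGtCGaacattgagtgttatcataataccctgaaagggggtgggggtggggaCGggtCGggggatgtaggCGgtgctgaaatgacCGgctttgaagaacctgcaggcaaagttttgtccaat
Hoxd4, chr2:74721728-74721977: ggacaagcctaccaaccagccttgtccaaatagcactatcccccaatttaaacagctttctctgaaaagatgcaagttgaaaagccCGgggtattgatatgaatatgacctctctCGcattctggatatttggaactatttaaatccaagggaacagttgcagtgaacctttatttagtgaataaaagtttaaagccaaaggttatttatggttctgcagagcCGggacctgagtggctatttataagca
Hoxd1, chr2:74762730-74762979: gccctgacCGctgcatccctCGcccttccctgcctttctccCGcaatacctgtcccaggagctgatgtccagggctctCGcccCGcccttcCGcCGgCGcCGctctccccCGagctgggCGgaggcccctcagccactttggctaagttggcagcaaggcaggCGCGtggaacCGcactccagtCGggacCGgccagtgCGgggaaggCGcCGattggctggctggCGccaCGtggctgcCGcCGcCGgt

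These windows do not follow the Ezh2 cover. They hold 31 CG at Hoxd13, 10 at Hoxd12, 3 at Hoxd4 and 24 at Hoxd1, so that Hoxd12, with the most Ezh2, has fewer than Hoxd1, with none. In the full window of 300 bases, which runs 50 bases past the start, the 10 HoxD starts had a median of 20 CG against 13 over the starts of all protein-coding genes. Across the 10 starts the Spearman correlation of the CG count with Ezh2 cover within 1 kb was 0.0494, and with H3K27me3 cover it was 0.165. These starts share libraries and neighbouring peaks, so both are descriptions.

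Runx1 touched HoxD at few and small sites, which together covered 0.546 ± 0.163% of the cluster against 1.03 ± 0.0410% of chromosome 2. One site, shared by the lists, lies before the start of Hoxd10, inside its RefSeq span (74690152 to 74690339 in replicate 1 and 74690145 to 74690379 in replicate 2). Its fold was 2.16 in replicate 1, with a q of 0.678, and 5.33 in replicate 2, with a q of 2.26e-09. Replicates therefore differed strongly in its height. The peak overlapped an Ezh2 peak in each Ezh2 list, with summits 27 to 123 bp apart, and at least 149 bp of it lay in the mark in each H3K27me3 list.

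The other shared Runx1 site lies inside Hoxd3 (74715813 to 74716075 and 74715901 to 74716082) and held a fold of 2.70 with a q of 7.23e-06 in replicate 1 and of 3.42 with a q of 3.57e-08 in replicate 2. It overlapped neither Ezh2 nor the mark in any list. Its distance to the nearest H3K27me3 peak was 551 to 685 bp, on the Hoxd1 side of where that mark ends. Its summits are 174 bp and 129 bp inside the start of Hoxd3os1, a long noncoding RNA gene read in the opposite direction to Hoxd3. One more peak, within Hoxd3, was found in replicate 1 alone with a q of 0.713.

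The RUNX motif was looked for in the windows of 300 bases at the starts, as the letters TGTGGT on either strand. Of the 10 HoxD starts, 1 held it, that of Hoxd10, where 14.97% of the starts of protein-coding genes did. It begins 10 bp before the start and is in capitals in the sequence of the 250 bases before Hoxd10, shown because this gene also carries a Runx1 site.
Hoxd10, chr2:74691641-74691890: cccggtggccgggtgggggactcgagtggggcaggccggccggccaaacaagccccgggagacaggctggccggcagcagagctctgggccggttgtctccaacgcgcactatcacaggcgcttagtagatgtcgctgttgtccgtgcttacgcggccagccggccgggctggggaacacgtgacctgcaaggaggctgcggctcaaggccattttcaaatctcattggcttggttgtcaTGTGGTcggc

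The Runx1 summits of that site were 1688 bp and 1633 bp from the start, so the motif in this window is not under the Runx1 peak. The bases under the peak itself were not analysed here.

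The next comparison set HoxD beside the 3 other Hox clusters in the same libraries. In Ezh2 cover HoxD differed from HoxC by -69.1 ± 0.323 percentage points and from HoxB by -39.98 ± 2.97, with HoxD at 15.9 ± 0.750%, HoxB at 55.9 ± 2.22% and HoxC at 85.0 ± 0.427%. Both differences exceeded their spread. HoxA did not stand apart from HoxD beyond the spread, with a difference of -6.24 ± 6.598 points for HoxD, and averaged over gene windows in place of the whole cluster the sign turned, to 4.77 ± 7.87. In H3K27me3 cover HoxD was below HoxA by -22.6 ± 2.48 points, below HoxB by -43.0 ± 2.72 and below HoxC by -53.0 ± 9.37. The difference from HoxA was smaller and close to its spread over gene windows, at -9.04 ± 8.70, and within its spread among peaks with a q of at most 0.01, at -5.77 ± 8.16. Each of the 6 differences over whole clusters had the same sign in both replicates. An exact two-sided permutation test over 2 libraries gave p = 0.5 for each of the 6, raw and so also after Benjamini-Hochberg adjustment, which is the smallest p this design allows.

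Paralogues, the genes of the same number in different clusters, show where along the axis HoxD falls behind. Of the 20 pairings of a HoxD gene with a paralogue, the HoxD gene had less Ezh2 in both lists than its partner had in either in 15, and more in 0. The other 5 overlapped, and they were Hoxd13 with Hoxa13 and Hoxc13, Hoxd12 with Hoxc12, Hoxd11 with Hoxa11, and Hoxd4 with Hoxa4. So 4 of the 5 lay among numbers 13 to 11, as with Hoxd12 at 75.7 ± 9.91% beside 63.6 ± 15.3% for Hoxc12. Not every posterior pairing overlapped, since Hoxb13 had 82.0 ± 4.48% and Hoxc11 had 90.8 ± 5.05%. From number 10 down the HoxD gene was lower in every pairing but that of Hoxd4 with Hoxa4, which had 19.3% and 0%. Hoxd8 had 13.5 ± 3.63% where Hoxb8 had 95.3 ± 1.50% and Hoxc8 96.8 ± 1.04%, and Hoxd4 had 0% where Hoxc4 had 77.2 ± 3.41%. For H3K27me3 the HoxD gene was lower in 13 of the 20 pairings and higher in 0. Pairings are not separate, as they reuse the same HoxD genes and Hoxd4 lies inside the span of Hoxd3. No such count was made for other genes, so both counts are descriptions and were not tested. Hoxd1 had 19.6 ± 9.53% of the mark where Hoxb1 had 95.7 ± 6.02%.

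**Figure D3:**
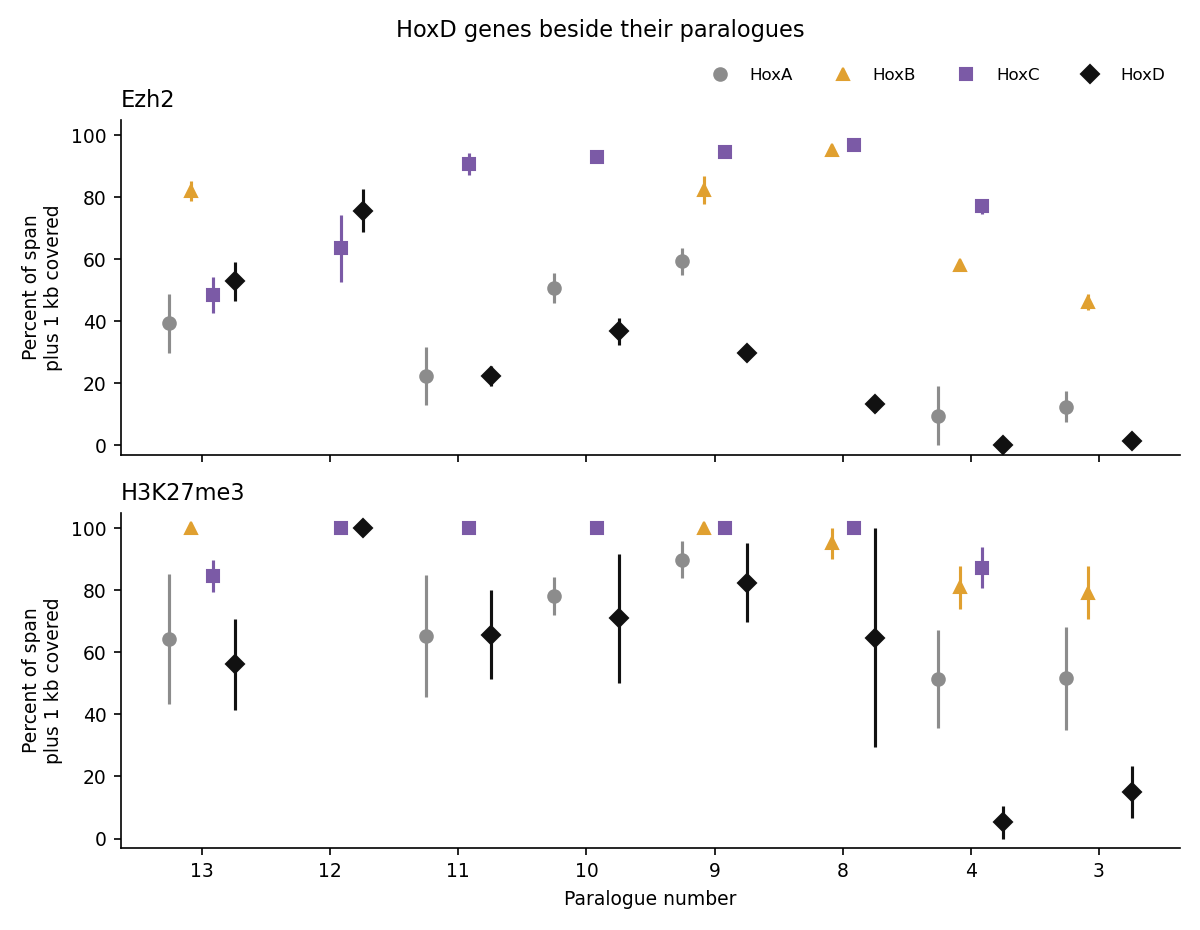
Percent of each gene, with 1 kb on either side, under Ezh2 peaks and under H3K27me3 peaks, for the HoxD genes and their paralogues of numbers 13 to 3. Symbols are means of 2 replicates and lines span the 2 values. For Ezh2 HoxD overlaps Hoxa13, Hoxc13, Hoxc12, Hoxa11 and Hoxa4, and its mean lies below every paralogue shown from number 10 down.

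Likeness was measured as the Euclidean distance between the 6 values of cover of a gene, 1 for each list, and the median of the HoxD genes. The other Hox genes nearest to this median were all of the HoxA cluster: Hoxa11 at a distance of 19.1 percentage points, Hoxa3 at 26.6 and Hoxa2 at 27.9. Outside the Hox clusters the nearest were Tmc2, a gene of the mechanotransduction channel of hair cells, at 4.598, Pcp4, which encodes a calmodulin-binding protein of Purkinje cells, at 5.95, and the splicing regulator gene Rbfox2 at 6.45. The median profile lay 1.24 from Hoxd11, 23.7 from Hoxd10, the next nearest member, and 92.6 from Hoxd12, the furthest. It therefore stands for Hoxd11 more than for the cluster. The genes named here are likewise near Hoxd11 and not near HoxD as a whole.

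The genes beside the cluster differed from it. Evx2, a homeobox gene next to Hoxd13 that is also active in the limb, had an Ezh2 cover of 5.53% and 4.44% at its Hoxd13 end and no H3K27me3 peak in either list. The first Ezh2 peaks at this end of HoxD began at -7.13 kb and -6.601 kb from the start of Hoxd13. Lnpk, whose protein shapes the endoplasmic reticulum, and Mtx2, a gene of mitochondrial protein import, lie beyond Evx2 and beyond Hoxd1. Neither had an Ezh2 or H3K27me3 peak. Runx1 lay at the start of Mtx2 with a fold of 7.12 and 6.204, and with summits 58 bp and 36 bp from the start. Its fold was lower at Lnpk, at 2.52 and 1.92.

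Further out, both sides of HoxD are bare of the mark and then marked again. Within 500 kb the longest stretch without H3K27me3 in either list was 143 kb on the Hoxd13 side (74507106 to 74649836), which holds Lnpk, and 147 kb on the Hoxd1 side (74819945 to 74967320), which holds Mtx2. The first held 1 Ezh2 peak in replicate 1 and 0 in replicate 2, and 3 and 6 Runx1 peaks. The second held 1 and 1 Ezh2 peaks and 10 and 6 Runx1 peaks. From 500 kb to 1000 kb out, Ezh2 covered 10.7 ± 0.624% on the Hoxd13 side and 10.6 ± 0.586% on the Hoxd1 side, and the mark covered 33.3 ± 12.9% and 34.7 ± 11.2%. In both replicates and on both sides these exceeded the Ezh2 and H3K27me3 cover of the chromosome. The regions on either side of HoxD are known as gene deserts that hold limb enhancers of the cluster.

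**Figure D4:**
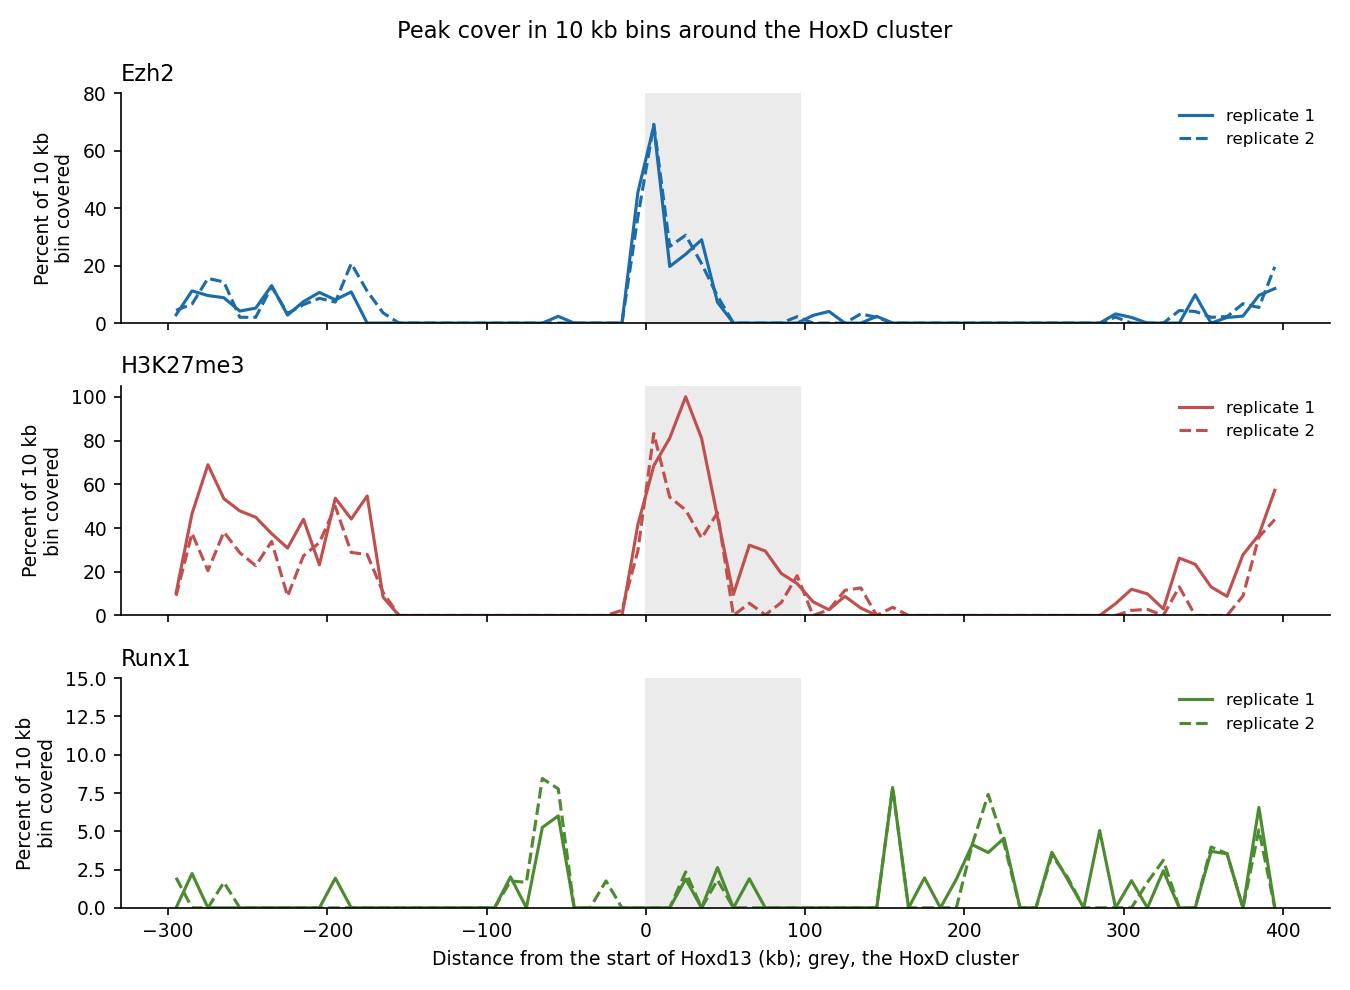
Percent of each 10 kb bin under peaks of each list, from 300 kb before the start of Hoxd13 to 300 kb after the cluster, which is shaded grey. Ezh2 and H3K27me3 rise at the Hoxd13 end of the cluster, are at or near 0% in the bins around Lnpk and Mtx2, and return further out, while Runx1 peaks lie in those bare bins.

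The same counts were made for genes that act with Hox proteins or set their state, to be read against the 31.5% of all protein-coding genes that carried Ezh2, the 39.2% with H3K27me3 and the 59.9% with Runx1. Of the 30 genes of the other Hox clusters, 27 carried Ezh2, 29 H3K27me3 and 2 Runx1, which were Hoxb3 and Hoxc4. Of 9 genes of the Meis, Pbx and Pknox families, whose proteins bind DNA together with Hox proteins, 5 carried Ezh2, 5 H3K27me3 and 7 Runx1. Of 20 core Polycomb genes, 7 carried Ezh2, a share close to that of all genes, 4 H3K27me3 and 20 Runx1. All 13 trithorax-type genes, which counter Polycomb at Hox genes, carried Runx1, 2 carried H3K27me3 and 0 Ezh2. All 7 genes of CTCF and cohesin, which fold the clusters, carried Runx1, 1 carried H3K27me3 and 0 Ezh2. No test was run on these counts.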

How the data were processed

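The series holds 8 libraries of EML_C1 cells, of which the 6 with an antibody have peak lists and the 2 inputs were not analysed here. Per the submitters' processing notes the build was mm10 and the tools included MACS2 2.0.10, Bowtie2 2.2.1, SAMtools and Picard, with neither roles nor parameters. Per the labels' protocols, formaldehyde alone fixed the H3K27me3 chromatin, and DSG came before it for the other antibodies. Each deposited list covers 1 library. Ezh2 and Runx1 came as narrow peaks and H3K27me3 as broad peaks, so their folds and q-values are not comparable. The deposited fold enrichment is a linear ratio given by the authors' peak caller, the deposited significance columns give -log10 of each p-value and q-value, and the deposited score was not used. The lists hold 178354 and 159007 Ezh2, 220455 and 178423 H3K27me3 and 64059 and 66153 Runx1 peaks. The depth of the libraries is unknown, since no source used here gives read totals. The labels do not say that replicates were separate cultures, so their spread may be technical.

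Genes, starts and sequences are from RefSeq on GRCm38.p6, whose chromosome coordinates are those of mm10, and all 9 members matched by symbol, as did all 9 among the starts. Coordinates count from 1. Overlapping peaks of a list were merged, and a call needs an overlap of at least 1 bp in both replicates. An ± is the SD over 2 replicates. The genes named are the 9 members, their paralogues and neighbours, and the nearest profiles, 3 within and 3 outside the Hox clusters. Some single-gene values are not reported here. The members and gene lists were chosen with earlier results of these data known. The alternatives were q cutoffs, the 10000 strongest peaks, other flanks and overlaps, single replicates and, added after seeing the data, windows at starts. Python 3.11.15 with numpy 2.4.6, pandas 2.3.3, scipy 1.17.1 and matplotlib 3.10.9 was used, and interval code was tested on simulated data.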

Additional observations from a re-analysis of the deposited data

How the results depend on the processing

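Of 96 recomputed values, 59 were scored as unchanged, 33 as moved and 4 as changed in sign. Covers were scored by their spread and differences by their direction. Gene counts have no spread, and modest changes in them were scored as unchanged. An example is Ezh2, which went from 7 genes to 5 at a q of at most 0.01. Peaks of a q of at most 0.01, of at most 1e-05 and the 10000 strongest gave an Ezh2 cover of HoxD of 10.2%, 6.01% and 8.14%, and a longest stretch without Ezh2 of 56.1 kb each time. Ezh2 was called at 3 genes at 1e-05 and at 4 within 1 kb of a start. With HoxD widened by 10 kb the Ezh2 cover was 16.8%. The same 3 peak sets gave an H3K27me3 cover of 5.53%, 0.170% and 6.48%, a longest unmarked stretch of 83.1 kb, 94.9 kb and 49.9 kb, and 0 genes each. For Runx1 they gave 1, 1 and 0 genes, a cover of 0.351%, 0.351% and 0%, and a longest stretch of 49.1 kb, 49.1 kb and 96.9 kb. Runx1 was called at 0 genes with an overlap of at least 200 bp and at 0 within 1 kb of a start. Leaving out 1 replicate at a time, the longest stretch ranged from 49.4 kb to 49.9 kb for Ezh2, from 7.16 kb to 20.8 kb for H3K27me3 and from 32.2 kb to 49.1 kb for Runx1. The H3K27me3 difference of HoxD from HoxA, HoxB and HoxC turned to 0.170 points each at 1e-05, where few peaks are left, and the Ezh2 difference from HoxA turned to 4.77 over gene windows. For the other shifts the cause was not tested.

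No paired analysis was possible because no test compares libraries of different antibodies, so there is nothing to match by replicate number. The differences between Hox clusters were each taken within 1 library. The peak lists give no reads, so a missing peak is not evidence that a region is unbound.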
